A study of Mus musculus with 10 samples.

Results

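The genes examined here encode the eukaryotic translation initiation and elongation factors. They were taken as the rows of the count table whose symbol starts with Eif or Eef, without the eIF2 kinases (Eif2ak), without *Eef1e1* and without pseudogenes marked -ps, and with a mean of 50 raw counts or more in wildtype libraries. Of 43346 rows, 60 matched by name and 55 reached the minimum. All 55 factor genes also passed the filter on low counts in every comparison. The other 5 rows were *Eif2c5*, *Eif4e1b* and *Eif2s3y*, which had 0 counts in all 10 libraries, *Eef1a2* with a wildtype mean of 0.75 counts and *Eif4ebp3* with a mean of 3.5 counts. The factor genes nearest to the minimum from above were *Eif5a2* with a mean of 221 counts and *Eif4e3* with 276.

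RNA was sequenced from mouse O9-1 cells, a cell line of the cranial neural crest that is tetraploid. There were 4 wildtype samples (WT), 3 clones with CRISPR/Cas9-inactivated *Kat5* (Kat5 ko) and 3 clones with inactivated *Ep400* (Ep400 ko). Kat5, also called Tip60, is a histone acetyltransferase and Ep400 is the chromatin remodeler of the same complex. Every clone grew from a single sorted cell, and the libraries of a knockout group are thus different clones of the line, whereas the WT libraries come from the unedited line. All cells were kept on Matrigel in medium conditioned by STO fibroblasts. Edits in the Kat5 ko clones and in Ep400 ko clone 1 affected every allele with frameshifts predicted, while Ep400 ko clones 2 and 3 retained alleles with short in-frame deletions at the ATP-binding site.

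Translation starts when eIF2 brings the initiator tRNA to the small ribosomal subunit, together with eIF1, eIF1A, eIF5 and the multisubunit scaffold eIF3. The mRNA is recruited through its cap by eIF4F, which consists of the cap-binding protein eIF4E, the scaffold eIF4G and the RNA helicase eIF4A. The 4E-binding proteins compete with eIF4G for eIF4E, and eIF2B recharges eIF2 with GTP after each round. In elongation, eEF1A delivers aminoacyl-tRNA, the eEF1B subunits exchange its nucleotide and eEF2 moves the ribosome along the mRNA.

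Between 30968945 and 48301792 reads per library were counted on genes. Levels in a library are given as CPM, which are counts per 1000000 counts of the library after TMM normalisation. *Kat5* was at 48.8 to 57.5 CPM in WT and 16.4 to 23.2 in the Kat5 ko clones, and *Ep400* at 157 to 165 in WT and 54.7 to 61.4 in the Ep400 ko clones, so that both targets were lower in their own clones than in every WT library. All 10 markers of cranial neural crest mesenchyme were detected in WT, with a summed level of 1710 to 1960 CPM. The pluripotency markers *Pou5f1*, *Nanog* and *Zfp42* summed to at most 0.0578 in WT. CPM describe shares of the mRNA, and fewer cells of a type cannot be told apart from less RNA per cell in these bulk samples.

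Translation factor mRNAs were abundant in O9-1 cells. In WT, the 55 genes took 3.48% to 3.57% of all counts, of which *Eef1a1* alone took 1.12% to 1.21% and *Eef2* 0.481% to 0.631%. To compare genes with each other, CPM were divided by the kilobases of annotated exon. The median factor gene then had a level of 49, compared to 5.37 for the 13992 tested genes with a length. Highest was *Eef1a1* with a level per length of 4580 ± 150 (SD, n = 4), followed by *Eef2* with 1600 ± 199, and neither overlapped with its neighbour in the order. *Eif5a*, which relieves ribosome stalling at proline stretches, reached 639 ± 56.9 and *Eef1g*, a subunit of eEF1B, 608 ± 56.1. These neighbours had overlapping ranges of 587 to 707 and 541 to 678, whereas *Eef1b2* was lower than both with 405 ± 18.8.

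**Figure D1:**
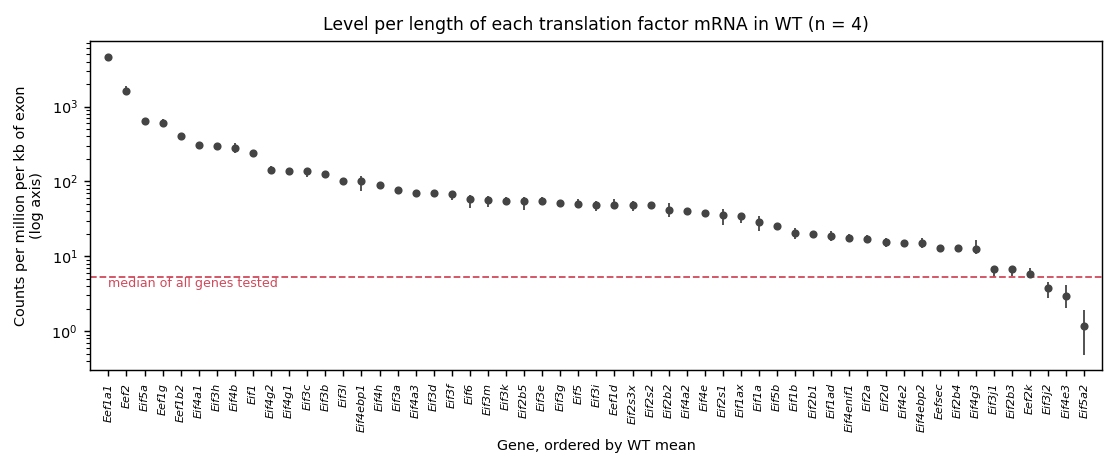
Level per length of the 55 factor mRNAs in WT, as CPM per kilobase of exon on a log axis. Points are means and bars the lowest and highest of 4 libraries. The order runs from *Eef1a1* at 4580 to *Eif5a2* at 1.19, and the dashed line is the median of all tested genes at 5.37.

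The lowest levels per length belonged to variant forms of a factor. *Eif5a2*, the second eIF5A gene, was at 1.19 ± 0.59 (SD, n = 4), *Eif4e3*, an eIF4E relative, at 2.97 ± 0.953 and *Eif3j2*, the second gene for an eIF3 subunit, at 3.75 ± 0.823. The ranges of *Eif4e3* and *Eif3j2* overlapped, and those of *Eif5a2* and *Eif4e3* did not. *Eef1a2*, the eEF1A form of muscle and neurons, was listed with 3 counts in WT library 3 and 0 in the other 9 libraries. Subunits of a complex were not at equal mRNA levels. In eIF3, WT levels per length ranged from 295 ± 16.5 for *Eif3h* to 6.72 ± 0.948 for *Eif3j1* besides *Eif3j2*, and in eIF2B from 54.8 ± 9.21 for the catalytic subunit *Eif2b5* to 6.67 ± 0.881 for *Eif2b3*.

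Promoter sequences from RefSeq (GRCm38.p6, 250 bases before to 50 bases after each annotated start) were found for 43 of the 55 genes. Several factor genes are textbook targets of Myc, and the windows were searched for its E-box CACGTG, which reads the same on both strands. It occurred in 12 of 43 genes (27.9%), in 11.7% of 9844 tested genes with a promoter and in 8.09% of all 27025 genes. The genes with a match were *Eif1b*, *Eif3a*, *Eif3f*, *Eif3k*, *Eif4a1*, *Eif4e*, *Eif4g1*, *Eif4h*, *Eif5a*, *Eif5a2*, *Eef2* and *Eef2k*. Of these, *Eif5a* was the only gene called lower in Ep400 ko clones in the main test described below, and genes without a window could not be searched. A gene was counted when any of its annotated starts had a match, with a mean of 1.33 windows per gene for the factor genes and 1.28 for tested genes. The following matches are shown for *Eif5a* and *Eif4a1*, the genes with the lowest log2-fold changes in Ep400 ko clones, for *Eif4e* and *Eif4g1* as further genes of the cap-binding complex, for *Eef2* as an abundant elongation factor and for *Eif3f*, which had the opposite sign to most other factors there. Sequences read 5′ to 3′ on the strand of the gene, with the E-box in capitals.
Eif5a (chr11:69921443-69921472, minus strand): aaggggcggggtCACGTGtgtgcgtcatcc
Eif4a1 (chr11:69672595-69672624, minus strand): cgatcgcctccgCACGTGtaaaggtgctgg
Eif4e (chr3:138527192-138527221, plus strand): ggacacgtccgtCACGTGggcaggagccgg
Eif4g1 (chr16:20672661-20672690, plus strand): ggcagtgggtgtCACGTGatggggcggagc
Eef2 (chr10:81176576-81176605, plus strand): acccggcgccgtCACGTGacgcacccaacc
Eif3f (chr7:108934335-108934364, plus strand): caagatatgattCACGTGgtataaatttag

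Their first E-box base lay at −74 for *Eif5a*, −189 for *Eif4a1*, −64 for *Eif4e*, −54 for *Eif4g1*, −43 for *Eef2* and −68 for *Eif3f*, counted from the annotated start as 1. The C/EBP-ATF response element TGATGNAAN, searched on both strands, was found in 2 of 43 factor genes (4.65%) and in 2.65% of tested genes. A start with C and at least 4 further pyrimidines, as in the terminal oligopyrimidine mRNAs that mTOR controls, was annotated for *Eif2s3x* and *Eif3f* (4.65%, compared to 3.04% of tested genes). Only a stretch beginning exactly at the annotated start was counted, and genes without a window were not searched. An mRNA whose true start lies a few bases away is missed, so the share does not show how many factor mRNAs are of this type. These matches are a description of the sequence, and binding of a factor was not measured here.

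The libraries of a group differed in how they expressed these genes. Expressed as log2 CPM minus the WT mean, the median over the 55 genes lay between −0.086 and 0.062 in WT. It was −0.092 in Kat5 ko clone 1, but 0.45 in clone 2 and 0.406 in clone 3. In Ep400 ko clones 1, 2 and 3, the median was −0.167, −0.231 and −0.62. Every Ep400 ko clone was thus below WT, while Kat5 ko clone 1 stood apart from its sister clones. Over all 14079 genes, the medians stayed between −0.008 and 0.05.

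**Figure D2:**
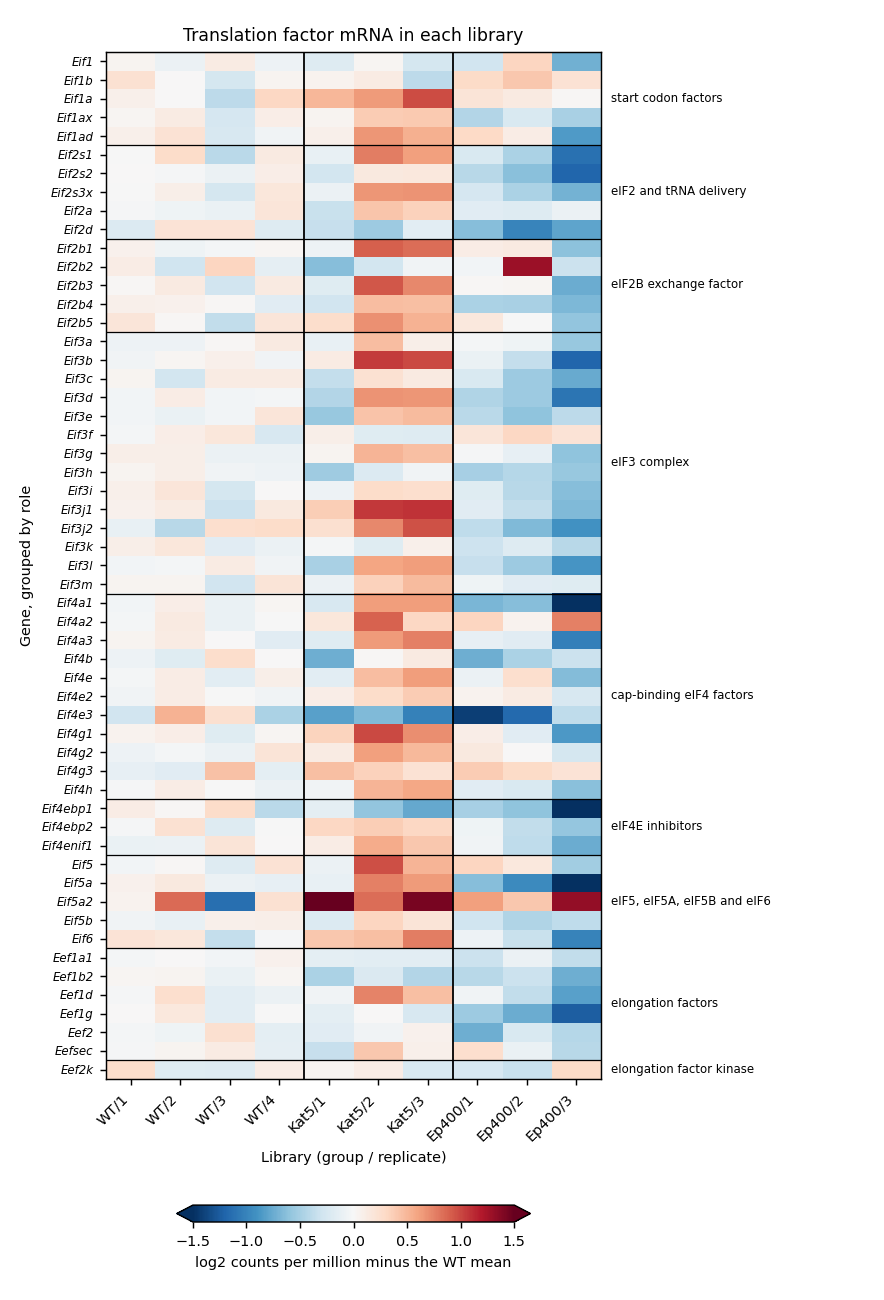
Heat map of the 55 factor mRNAs (rows, by role) in the 10 libraries (columns), coloured by log2 CPM minus the WT mean, with colours ending at 1.5 in either direction. Kat5 ko clones 2 and 3 are mostly red with medians of 0.45 and 0.406, and Ep400 ko clone 3 is mostly blue with a median of −0.62.

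Counted per gene, 38 of 55 factor mRNAs were above the highest WT library in Kat5 ko clone 2 and 37 in clone 3, compared to 33.6% and 33.2% of all genes. In Kat5 ko clone 1, 10 were above and 22 below the WT range, compared to 27.8% and 27.7% of all genes. In Ep400 ko clones 1, 2 and 3, 24, 33 and 45 of 55 were below the lowest WT library, compared to 29.5%, 31.7% and 34.3% of all genes. As share of the library, the factor mRNAs took 3.16%, 3.72% and 3.65% of counts in the Kat5 ko clones and 2.84%, 2.89% and 2.57% in the Ep400 ko clones. Mitochondrial transcripts took 1.2% to 2.43% of counts in WT, 0.893% to 1.24% in Kat5 ko clones and 1.99%, 1.58% and 3.24% in Ep400 ko clones 1, 2 and 3, and their part in these differences was not tested.

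Between the Kat5 ko clones and WT, none of the 55 factor genes passed the test in either direction (edgeR's quasi-likelihood test, adjusted p at most 0.05), with 0.179% of all 13434 genes called higher and 0.447% called lower. No factor gene was a DEG, for which an absolute log2-fold change of 1 or more was also required, compared to 0.476% of all genes. The log2-fold change was above 0 for 38 factor genes, with a median of 0.286 compared to 0 for all tested genes. Without Kat5 ko clone 3 the median was 0.18. At an unadjusted p of at most 0.05, 12 factor genes were higher and 4 lower, with 10.7% and 11.6% of all genes as background. In limma-voom none was called either, and in DESeq2 4 were called higher (*Eif1a*, *Eif3b*, *Eif3j1* and *Eif4g1*) and 1 lower (*Eef1b2*). DESeq2 also called far more of all genes, with 4.86% higher and 6.12% lower. In both directions together, the 5 factor genes were not above this background. By direction, the 4 higher calls were above their share and the 1 lower call was under it, with counts this small. All 3 clones were above the WT range for 8 genes, namely *Eif1a*, *Eif2b5*, *Eif3b*, *Eif3j1*, *Eif4a2*, *Eif4g1*, *Eif4ebp2* and *Eif6*, and below it for 3, namely *Eif4e3*, *Eef1a1* and *Eef1b2*, compared to 9.34% and 10.2% of all genes.

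*Eif4g1*, the large scaffold of the cap-binding complex, was at 1060, 1090, 899 and 1050 CPM in WT and at 1290, 2020 and 1660 in Kat5 ko clones 1 to 3. All clones were above all WT libraries, and the log2-fold change was 0.66 (SE 0.17, adjusted p = 0.0889 in edgeR). *Eif3j1*, a loosely attached eIF3 subunit, was at 40.5, 42.2, 31 and 42.9 CPM in WT and at 50.3, 81.3 and 82.7 in the clones. Clone 1 was nearest to WT here too, and the log2-fold change was 0.83 (SE 0.20, adjusted p = 0.0827). *Eif1a*, which helps to open the ribosome for scanning, had 119 ± 22.8 CPM in WT (SD, n = 4) and 192 ± 33.5 in the clones (SD, n = 3), with a log2-fold change of 0.66 (SE 0.19, adjusted p = 0.105). The largest difference was that of *Eif5a2*, with 5.56, 9.62, 2.4 and 6.27 CPM in WT and 18, 9.59 and 14.3 in the clones (log2-fold change 1.20, SE 0.43, adjusted p = 0.159), where clone 2 was within the WT range. The largest in the other direction was that of *Eif4e3* with −0.92 (SE 0.31, adjusted p = 0.148), from 5.17 to 10.3 CPM in WT and from 3.55 to 4.51 in the clones.

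Elongation factors differed among each other in Kat5 ko clones. Their median log2-fold change was −0.12 over 6 genes, with 0.38 for *Eef1d* (SE 0.20, adjusted p = 0.292), 0.04 for *Eefsec* (SE 0.18, adjusted p = 0.91), −0.41 for *Eef1b2* (SE 0.13, adjusted p = 0.124), −0.19 for *Eef1a1* (SE 0.11, adjusted p = 0.349) and −0.09 for *Eef2* (SE 0.14, adjusted p = 0.74). *Eef1a1* was at 11100 to 12000 CPM in WT and at 10300, 10200 and 10200 in the clones. For eIF2B, the median was 0.45 over 5 genes, for eIF5, eIF5A, eIF5B and eIF6 0.48 over 5 genes and for eIF3 0.18 over 14 genes, each without a call. The eIF3 core subunit *Eif3b* had 415 ± 19.1 CPM in WT and 453, 860 and 823 in the clones, a log2-fold change of 0.75 (SE 0.21, adjusted p = 0.104).

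Without Kat5 ko clone 1, 22 factor genes passed the test as higher and 1, *Eif4ebp1*, as lower. The 22 included *Eif2s1* of eIF2 with a log2-fold change of 0.64 (adjusted p = 0.0478), *Eif4a1* with 0.59 (adjusted p = 0.013), *Eif4e* with 0.51 (adjusted p = 0.0294), *Eif4g1* with 0.82 (adjusted p = 0.00931), *Eif5a* with 0.66 (adjusted p = 0.0134) and *Eif3j1* with 1.03 (adjusted p = 0.00762). With this clone left out, 2654 of 13703 genes were called (9.83% higher and 9.54% lower), compared to 84 with it. Clone 1 thus decided the count. Clone 1 also differed in smooth muscle markers, with *Acta2* at 505 and *Tagln* at 180 CPM, compared to 5.58 to 15.3 and 0.173 to 1.37 in WT, whereas *Myh11* and *Cnn1* stayed under 0.1. Summed over the 4 markers this was 685 compared to 5.84 to 16.6 in WT. On chromosome 15, which holds 6 factor genes, the median of 548 genes on the log2 scale relative to WT was −0.35 in clone 1. It was 0.041 in clone 2 and 0.219 in clone 3. The part of either difference in the result was not tested.

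In Ep400 ko clones, 8 of 55 factor genes (14.5%) passed the test as lower than in WT and none as higher, with 5.72% of all 13836 genes called lower and 8% called higher. At an unadjusted p of at most 0.05, 22 factor genes were lower and 0 higher, compared to 14.2% and 18% of all genes. The log2-fold change was below 0 for 47 of 55 genes, with a median of −0.37 compared to 0.04 for all tested genes. Without Ep400 ko clone 3 the median was −0.22, and 38 genes were below 0. In 19 genes every clone was below the WT range (background 14%) and in 1, *Eif3f*, every clone was above it (background 15.9%). DESeq2 and limma-voom also called 0 factor genes higher, and called 17 and 9 lower, which included all 8 in both cases. Of all genes, these programs called 10.5% and 5.96% lower.

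**Figure D3:**
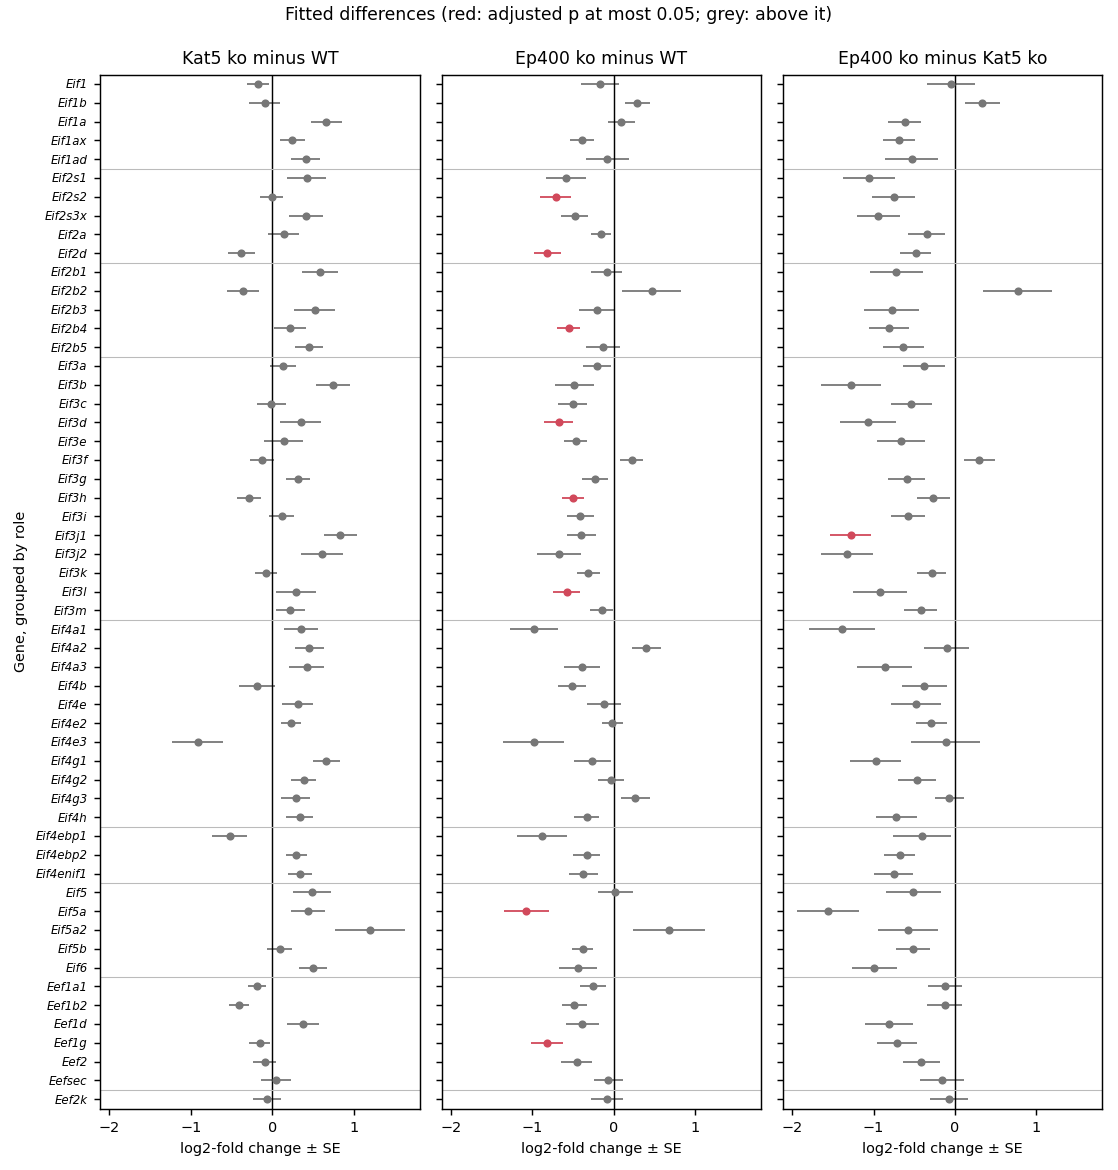
Log2-fold changes of the 55 factor mRNAs with their standard errors from edgeR, for Kat5 ko minus WT, Ep400 ko minus WT and Ep400 ko minus Kat5 ko. Red points passed an adjusted p of 0.05 (0, 8 and 1 genes), and 38, 8 and 3 of the 55 points lie to the right of 0.

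The 8 genes belonged to different steps of translation. *Eif5a*, located on chromosome 11 from 69916714 to 69921958 in GRCm38, was at 1580, 1680, 1420 and 1400 CPM in WT and at 972, 783 and 417 in Ep400 ko clones 1 to 3. It fell in all clones, with a log2-fold change of −1.07 (SE 0.27, adjusted p = 0.0359, edgeR), and was the only factor gene with an absolute change of at least 1 and thus the only differentially expressed gene (DEG) by this criterion, which 6.42% of all genes met. *Eef1g* was at 1590, 1760, 1410 and 1570 CPM in WT and at 1080, 945 and 666 in the clones. Its log2-fold change was −0.82 (SE 0.20, adjusted p = 0.0296). *Eif2d*, which can place tRNA on the ribosome without eIF2, was at 97.9, 130, 129 and 98.3 in WT and at 72.4, 56.7 and 64.9 in the clones. It had the lowest adjusted p of the factor genes with 0.0167 at a log2-fold change of −0.82 (SE 0.17).

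Among the eIF2 subunits, *Eif2s2* fell from 323 ± 16.7 CPM (SD, n = 4) to 198 ± 50.9 (SD, n = 3), with a log2-fold change of −0.71 (SE 0.19, adjusted p = 0.0422). *Eif2s1*, which carries the phosphorylation site of the stress kinases, had 177 ± 34.1 in WT and 149, 125 and 80.4 in the clones and did not pass the test (−0.58, SE 0.24, adjusted p = 0.135). Of eIF2B, the regulatory subunit *Eif2b4* fell from 33.2 ± 2.52 to 22.7 ± 1.72 CPM (−0.55, SE 0.14, adjusted p = 0.036). *Eif2b5* was at 160, 142, 109 and 159 in WT and at 157, 140 and 92.9 in the clones and thus largely overlapped (−0.13, SE 0.21, adjusted p = 0.71). *Eif2b2* was high in a single clone, with 190 CPM in clone 2, 76 and 62.8 in clones 1 and 3 and 63.9 to 97.5 in WT.

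In eIF3, 3 of 14 subunits passed as lower. *Eif3d*, which can itself bind the cap of some mRNAs, was at 338, 375, 338 and 340 CPM in WT and at 255, 238 and 163 in the clones (−0.67, SE 0.18, adjusted p = 0.0406). *Eif3h* fell from 475 ± 26.6 to 337 ± 15.5 (−0.50, SE 0.13, adjusted p = 0.0397) and *Eif3l* from 375 ± 21.9 to 252 ± 46.5 (−0.58, SE 0.16, adjusted p = 0.0486). Of the other 11 subunits, 10 had a log2-fold change below 0. *Eif3e* was close to the threshold with −0.47 (SE 0.14, adjusted p = 0.0594), whereas the scaffold *Eif3a* had −0.20 (SE 0.17, adjusted p = 0.447). *Eif3f* was the exception with 188, 207, 217 and 163 CPM in WT and 218, 238 and 222 in the clones (0.22, SE 0.14, adjusted p = 0.31).

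None of the 11 eIF4 factors passed the test in edgeR. *Eif4a1*, the helicase of the cap-binding complex, was near the threshold. It was at 1290, 1420, 1240 and 1350 CPM in WT and at 820, 847 and 347 in the clones. All clones were below all WT libraries (−0.98, SE 0.29, adjusted p = 0.059). It was called lower in DESeq2 (adjusted p = 0.00792) and limma-voom (adjusted p = 0.048), and DESeq2 also called *Eif4b* and *Eif4e3*. *Eif4g1* was at 899 to 1090 in WT and at 1100, 907 and 561 in the clones (−0.26, SE 0.23, adjusted p = 0.458), and *Eif4e* at 202 to 244 and at 212, 270 and 144 (−0.12, SE 0.21, adjusted p = 0.733). For both, only clone 3 was below the WT range. *Eif4a2* was at 210, 236, 200 and 214 in WT and at 270, 223 and 362 in the clones, with a positive value of 0.40 (SE 0.18, adjusted p = 0.161).

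The inhibitors of eIF4E were described separately. *Eif4ebp1* was at 235, 219, 262 and 163 CPM in WT, at 196, 144 and 128 in Kat5 ko clones and at 153, 142 and 64.3 in Ep400 ko clones. Every Ep400 ko clone was below the WT range and Kat5 ko clone 1 was inside it. The log2-fold change was −0.52 for Kat5 (SE 0.21, adjusted p = 0.196) and −0.88 for Ep400 (SE 0.30, adjusted p = 0.0868), so that neither passed in edgeR, whereas DESeq2 called it lower for Ep400 (adjusted p = 0.0267). *Eif4ebp2* was at 75.1 to 101 CPM in WT, at 107, 111 and 107 in Kat5 ko clones and at 82, 66.7 and 57.5 in Ep400 ko clones, with log2-fold changes of 0.30 (SE 0.13, adjusted p = 0.236) and −0.33 (SE 0.16, adjusted p = 0.198). *Eif4ebp3* stayed between 0 and 11 raw counts in all libraries. Across the 10 libraries, the genes whose log2 CPM were most like those of *Eif4ebp1* were *Rpl19-ps11*, *Sergef*, *Dok1*, *Rps9*, *Cars*, *Sec61b*, *Pkn3*, *Gm8203*, *Gm10709* and *Irak1*, with Pearson's r from 0.955 to 0.884. Of the factor genes, *Eef1g* (0.802), *Eef1b2* (0.772), *Eef1a1* (0.712), *Eif2d* (0.685) and *Eif1* (0.684) were nearest. The libraries form 3 groups that these values share, and they serve as a description only.

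All 6 elongation factors had log2-fold changes below 0 in Ep400 ko clones, and for 4 of them every clone was below the WT range. Besides *Eef1g*, these were *Eef1b2* with 1030 ± 47.6 CPM in WT (SD, n = 4) and 736 ± 105 in the clones (SD, n = 3; −0.48, SE 0.16, adjusted p = 0.0728), *Eef2* with 5320 ± 661 and 3880 ± 679 (−0.46, SE 0.19, adjusted p = 0.139) and *Eef1a1* with 11400 ± 374 and 9570 ± 1030 (−0.26, SE 0.16, adjusted p = 0.301). *Eef2k*, the kinase that inhibits eEF2, was at 37.7 to 51.6 in WT and at 36.5, 34.2 and 52.5 in the clones (−0.08, SE 0.20, adjusted p = 0.808). *Eif5b*, needed for joining of the ribosomal subunits, had a value of −0.38 (SE 0.13, adjusted p = 0.0823), *Eif6*, which keeps the large subunit apart, of −0.44 (SE 0.23, adjusted p = 0.227), *Eif5* of 0.02 (SE 0.21, adjusted p = 0.963), and the start codon factors *Eif1* and *Eif1a* of −0.17 (SE 0.23, adjusted p = 0.657) and 0.10 (SE 0.17, adjusted p = 0.733).

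**Figure D4:**
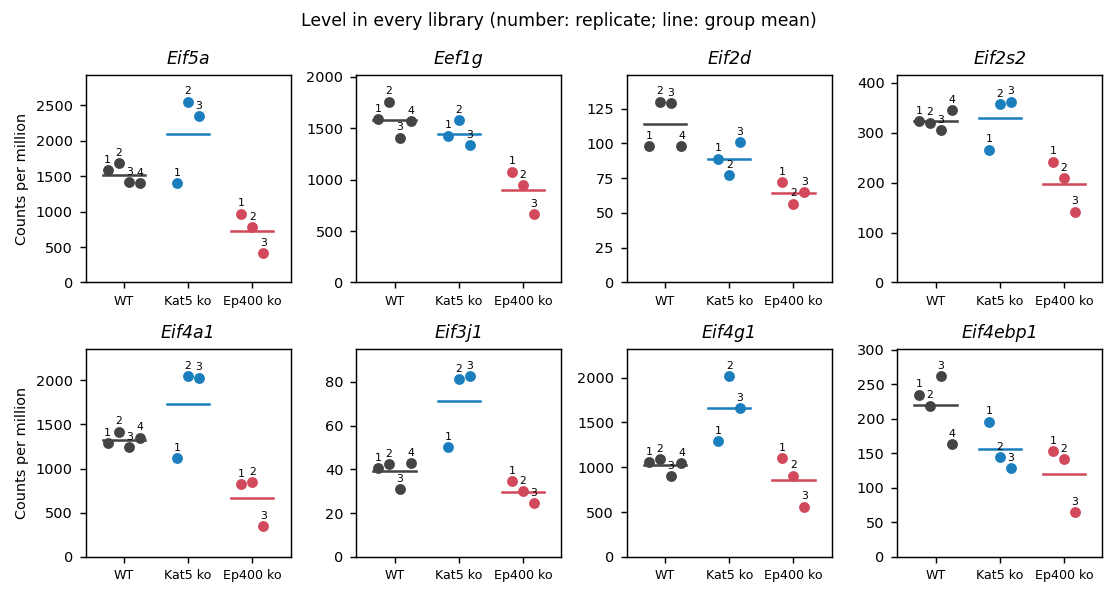
CPM (from 0) of 8 factor mRNAs in every library, with points numbered by replicate and lines at group means. For *Eif5a*, *Eef1g*, *Eif2d*, *Eif2s2* and *Eif4a1* all Ep400 ko clones lie below all WT libraries, and for *Eif3j1* and *Eif4g1* all Kat5 ko clones lie above them.

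These calls were sensitive to single libraries. Without Ep400 ko clone 3, the clone with the lowest factor median, 7 factor genes were lower, 6 of them among the 8. *Eif5a* then had −0.80 (adjusted p = 0.0211), *Eef1g* −0.65 (adjusted p = 0.0315), *Eif2d* −0.82 (adjusted p = 0.0314) and *Eif4a1*, now called, −0.67 (adjusted p = 0.0205). Leaving out Ep400 ko clone 1 left 6 calls, Ep400 ko clone 2 or WT library 1, 2 or 4 left 1 call each and WT library 3 left 2, and *Eif2d* was called in all 7 of these fits. All 8 values stayed below 0 throughout. The share of all genes called lower changed as well, from 5.72% to 2.32%, 2.83%, 4.88% and 2.58% without WT libraries 1 to 4 and to 6.13%, 3.86% and 5.55% without Ep400 ko clones 1 to 3.

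Neighbouring genes moved with some of these genes. *Eif5a* and *Eif4a1*, which lies from 69666936 to 69672423 of chromosome 11, share a neighbourhood in which 93 other genes within 2 Mb had medians of −0.314, −0.233 and −0.271 in Ep400 ko clones 1 to 3 on the log2 scale relative to WT, and all 1141 genes of chromosome 11 had −0.167, −0.191 and −0.204. With an offset for the chromosome median, *Eif5a* had −0.89 (adjusted p = 0.0639) and *Eif4a1* −0.80 (adjusted p = 0.104). *Eif3d*, *Eif3h* and *Eif3l* of chromosome 15, with medians of −0.104, −0.097 and −0.105, had −0.58, −0.40 and −0.48 with the offset, compared to −0.67, −0.50 and −0.58 without it. The offset moved these values little, and their adjusted p became 0.0706, 0.0846 and 0.075. In contrast, *Eef1g* on chromosome 19, where the medians were 0.291, 0.271 and 0.239, went to −1.09 (adjusted p = 0.0105), and *Eif2d*, *Eif2s2* and *Eif2b4* remained called. Within 2 Mb, medians in clones 1 to 3 were 0.204, 0.086 and −0.037 for 73 neighbours of *Eef1g*. They were −0.042, −0.215 and −0.575 for 7 neighbours of *Eif3h*. For *Eif3d* they were −0.079, −0.103 and −0.027, and for *Eif3l* −0.079, −0.026 and −0.147. No offset for these neighbourhoods was fitted. Neural crest markers summed to 2420 to 3690 CPM in Ep400 ko clones, compared to 1710 to 1960 in WT, with *Pdgfra* at 520 to 648 and at 105 to 136. Of the 10 markers, 6 had a log2-fold change above 0 and 4 below 0. Every clone was above the WT range for 4 markers and below it for 2, *Snai1* and *Sox9*. Their part in the differences was not tested.

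In the direct comparison of Ep400 ko with Kat5 ko clones, 52 of 55 factor genes had a log2-fold change below 0, with a median of −0.58 compared to 0.01 for all tested genes. Of these, 1 passed the test as lower (1.82%) and none as higher, with 2.83% and 4.22% of all 13587 genes as background. At an unadjusted p of at most 0.05, 26 were lower and 0 higher (background 16% and 16.3%). limma-voom called 3 factor genes lower and 0 higher, and DESeq2 19 and 0, with 3.21% and 10.3% of all genes called lower. *Eif3j1* was called, with 50.3, 81.3 and 82.7 CPM in Kat5 ko clones and 34.6, 30.2 and 24.5 in Ep400 ko clones. The groups did not overlap, and the log2-fold change was −1.28 (SE 0.26, adjusted p = 0.0366), which made it a DEG, as were 5.36% of all genes. The values for 26 genes were below the Kat5 ko range in every Ep400 ko clone (background 17.6%) and those for 2, *Eif1b* and *Eif3f*, above it (background 20.4%).

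Larger or similar differences without a call were those of *Eif5a* with −1.55 (SE 0.38, adjusted p = 0.0516), *Eif4a1* with −1.38 (SE 0.41, adjusted p = 0.0693), *Eif3j2* with −1.32 (SE 0.32, adjusted p = 0.0516) and *Eif3b* with −1.28 (SE 0.36, adjusted p = 0.0653). *Eif3j1* and *Eif3j2* are related genes, and how the authors' counting divided shared reads between them is not stated. For eIF4F, *Eif4g1* had −0.97 (SE 0.31, adjusted p = 0.083) and *Eif4e* −0.48 (SE 0.31, adjusted p = 0.308). *Eif2s1* had −1.05 (SE 0.32, adjusted p = 0.0742), *Eif6* −0.99 (SE 0.27, adjusted p = 0.0624) and *Eif4ebp2* −0.68 (SE 0.19, adjusted p = 0.0651). Of the abundant elongation factors, *Eef1a1* differed little with −0.12 (SE 0.21, adjusted p = 0.716), and *Eef2* had −0.42 (SE 0.23, adjusted p = 0.239). Without Kat5 ko clone 1, 14 factor genes were called lower, among them *Eif3j1*, *Eif5a* (−1.78, adjusted p = 0.031) and *Eif4a1* (−1.62, adjusted p = 0.0434). In this fit 8.68% of all genes were called lower. Without any other single clone no factor gene was called, with at most 0.639% of all genes called lower, and in a fit of all 10 libraries 24 were, with 12.1% of all genes.

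The ratio of levels per length was also compared for 7 pairs of related genes, which were chosen after the values had been seen. Whether the genes of a pair can replace each other was not tested. In WT, *Eif4a1* exceeded *Eif4a2* 7.54, 7.39, 7.61 and 7.76 times. This ratio was 5.68, 6.36 and 9.36 in Kat5 ko clones and 3.75, 4.68 and 1.18 in Ep400 ko clones, where it was below every WT library. The mean log2 ratio differed by −1.46 between Ep400 ko clones and WT, with an SD of 1.07 between the clones. *Eif5a* exceeded *Eif5a2* 369 to 1250 times in WT, 165 to 563 times in Kat5 ko clones and 251, 234 and 66 times in Ep400 ko clones. The ratio of *Eif4ebp1* to *Eif4ebp2* was 5.03 to 9.18 in WT, 4.83, 3.4 and 3.14 in Kat5 ko clones and 4.91, 5.61 and 2.94 in Ep400 ko clones. Since the pairs were chosen by their values, no test was made.

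**Figure D5:**
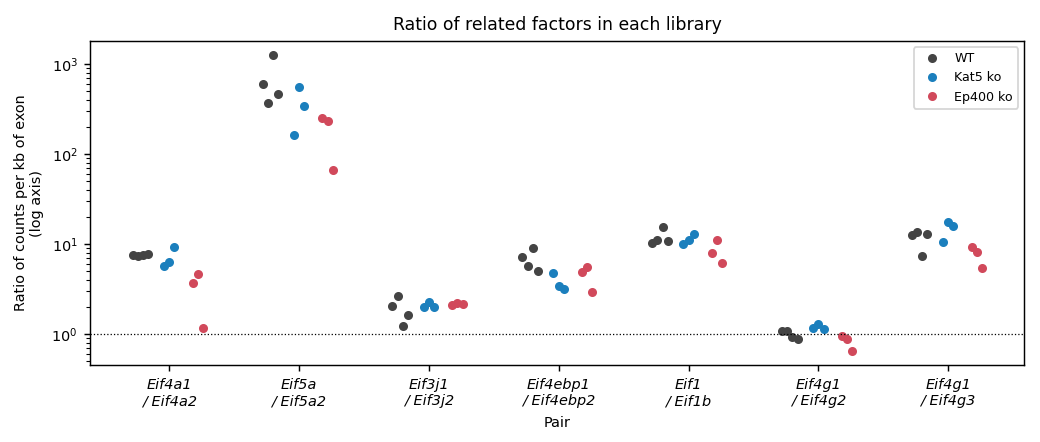
Ratio of the levels per length of 7 pairs of related factor genes in each library, on a log axis, coloured by group. The ratio of *Eif4a1* to *Eif4a2* is 7.39 to 7.76 in WT and 1.18 to 4.68 in Ep400 ko clones, while the ratio of *Eif3j1* to *Eif3j2* is 2.1 to 2.24 in Ep400 ko clones, inside the WT range of 1.22 to 2.64.

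Genes that act on the factors were examined as 8 further lists, against the same shares of all genes called (8% higher and 5.72% lower for Ep400, 4.22% and 2.83% in the direct comparison). Of 8 eIF2 kinases, phosphatase subunits and their partners, *Eif2ak1*, the heme-regulated kinase, rose in Ep400 ko clones (log2-fold change 0.45, SE 0.12, adjusted p = 0.0363) and none passed for Kat5 or in the direct comparison. Of 16 genes of mTOR and cap control, *Ddit4*, an inhibitor of mTORC1 signalling, fell in Ep400 ko clones by 1.99 on the log2 scale (SE 0.39, adjusted p = 0.0148). *Larp1*, which represses terminal oligopyrimidine mRNAs, fell too (−0.86, SE 0.19, adjusted p = 0.0224) and *Mlst8*, a subunit of both mTOR complexes, rose (0.65, SE 0.18, adjusted p = 0.0462). Directly compared, *Larp1* was lower in Ep400 ko than in Kat5 ko clones (−1.61, SE 0.36, adjusted p = 0.0458) and *Pdcd4*, an inhibitor of eIF4A, higher (2.33, SE 0.55, adjusted p = 0.0493). *Larp1* was at 336 to 369 CPM in WT, at 322, 744 and 683 in Kat5 ko clones and at 209, 233 and 139 in Ep400 ko clones. Kat5 ko clone 1 was again nearest to WT.

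Of 6 helicases and reinitiation factors, *Denr* was lower in Ep400 ko than in Kat5 ko clones (−0.82, SE 0.19, adjusted p = 0.0484), and of 10 mitochondrial translation factors *Mtif3* rose in Ep400 ko clones (0.54, SE 0.15, adjusted p = 0.0462). In lists of this size, a single call is near the share of all genes called, and *Mtif3* was not called when any 1 library was left out. With each library left out in turn, *Eif2ak1* and *Mlst8* were called for Ep400 in 1 of 7 fits, *Larp1* in 4 and *Ddit4* in 7. Between the knockouts, *Larp1*, *Pdcd4* and *Denr* were called in 1 of 6 such fits. Most of these fits also called fewer of all genes. None passed in any comparison among 5 poly(A) binding proteins and partners, 6 termination and recycling factors and 9 enzymes of the hypusine and diphthamide modifications of eIF5A and eEF2, with medians of 0.12, 0.43 and 0.27 for Kat5 and −0.40, −0.30 and −0.14 for Ep400.

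The 19 genes of the ATF4 pathway, which responds to phosphorylated eIF2, had larger differences. In Kat5 ko clones, 5 of 19 fell (26.3%, with 0.447% of all genes called lower) and in Ep400 ko clones 10 of 19 (52.6%, with 5.72% of all genes). The medians were −0.87 and −1.14 on the log2 scale, and both comparisons share their WT libraries. The 5 calls for Kat5 depended on single libraries, as did the calls over all genes. None of the 19 genes was called without WT library 1, WT library 4 or Kat5 ko clone 3. In these fits 0.00752%, 0.00755% and 0.0218% of all genes were called lower. Without clone 2, WT library 3 or clone 1, 1, 3 and 8 were called, with 0.152%, 0.196% and 9.54% of all genes. With any 1 library left out, the median over the 19 genes stayed between −0.982 and −0.571. For Ep400, leaving out each library gave 6 to 11 lower genes, with 6 without WT library 1, WT library 4 or clone 2. Of all genes, 2.32% to 6.13% were called lower in the fits for Ep400. *Trib3*, a pseudokinase of this response, was at 51.2, 16, 64.7 and 44.4 CPM in WT, at 2.29, 3.69 and 4.43 in Kat5 ko clones and at 12.1, 5.41 and 7.44 in Ep400 ko clones. It fell by 3.70 for Kat5 (SE 0.50, adjusted p = 0.0287) and by 2.40 for Ep400 (SE 0.48, adjusted p = 0.0162), and neither clone group overlapped with WT. *Pck2*, mitochondrial phosphoenolpyruvate carboxykinase, fell by 2.10 for Kat5 (SE 0.22, adjusted p = 0.0174) and fell by 1.97 for Ep400 (SE 0.28, adjusted p = 0.00518). *Nupr1*, a stress-induced chromatin protein, fell by 2.35 for Kat5 (SE 0.33, adjusted p = 0.0322) and fell by 2.42 for Ep400 (SE 0.46, adjusted p = 0.0143), *Chac1*, which degrades glutathione, by 2.65 for Kat5 (SE 0.41, adjusted p = 0.0445) and *Asns*, asparagine synthetase, by 1.29 for Kat5 (SE 0.21, adjusted p = 0.0482). For Ep400 in edgeR, *Asns* was called lower too (−1.60, SE 0.34, adjusted p = 0.0195). *Chac1* was not called there (−1.56, SE 0.52, adjusted p = 0.0793). *Aldh18a1* of proline synthesis fell by 2.00 for Ep400 (SE 0.25, adjusted p = 0.00369) and *Mthfd2* of mitochondrial folate metabolism by 1.91 (SE 0.36, adjusted p = 0.0129). *Atf4* itself was at 444 to 631 CPM in WT, at 253, 393 and 363 in Kat5 ko clones and at 352, 466 and 193 in Ep400 ko clones. In edgeR it was not called for Kat5 (−0.63, SE 0.20, adjusted p = 0.126) or Ep400 (−0.60, SE 0.29, adjusted p = 0.188). Of the 19 genes, 1 had a log2-fold change above 0 for Kat5 and 2 for Ep400, *Cebpb* and *Slc3a2*. Relative to the WT mean, the list median already ran from −0.353 to 0.421 among WT libraries. It was −1.196, −0.61 and −0.704 in Kat5 ko clones and −0.7, −0.99 and −1.874 in Ep400 ko clones. Between the knockouts, *Cebpb* (1.46, SE 0.24, adjusted p = 0.0294) and *Atf5* (1.41, SE 0.31, adjusted p = 0.0433) were higher in Ep400 ko clones. With 1 library left out, *Cebpb* was called in 2 of 6 fits and *Atf5* in 1.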

How the data were processed

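RNA of 10 libraries was examined. Per the labels and the methods, stranded poly-A libraries were made by the authors, read in pairs with a NovaSeq system and aligned to mm10. The submitters' processing notes name STAR 2.7.3, bcl2fastq 2.20, DESeq2 1.36.0 and R 4.2.1. The authors deposited raw counts of reads per gene, which were used, and normalized tables, which are scaled copies and were not used. The counting program, its strand setting and the annotation are not given in the sources used here, and reads shared with pseudogenes or related genes may have been divided or lost.

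Groups followed the labels. For each of 3 comparisons, edgeR 4.0.16 in R 4.3.3 was used with its filter filterByExpr, TMM factors and the quasi-likelihood test under robust moderation, and p-values were adjusted over all tested genes by Benjamini-Hochberg. A call was an adjusted p of at most 0.05. For a DEG, the log2-fold change also had to reach 1 in either direction, and the mean of normalized counts had to exceed 100 in WT or ko libraries. CPM (counts per 1000000), ranges and medians used TMM factors of all 10 libraries, and log2 values a prior count of 2. Coordinates and exon lengths are those of GENCODE M21 (GRCm38). WT samples are described as independent and knockout libraries as clones. The error in a test of a knockout against WT thus combines the spread between WT samples with that between clones. No unedited clone is among the libraries, and an effect of cloning cannot be told apart from that of the knockout. No library was a repeat of another, since counts within groups differed far beyond counting error (28.2 to 266 as chi-square over degrees of freedom). The procedure was tested on simulated data.

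The factor genes, the further lists and the markers were chosen with earlier results of these data known. Named in the text were all called factor genes, the 5 with the largest absolute change per comparison, the 5 highest and 3 lowest levels in WT, a set of defining factors, called genes of the further lists (at most 5 per list and comparison) and those most like *Eif4ebp1*. Other factor genes, such as *Eif2b2*, *Eif2b3*, *Eif3e* and *Eif3f*, and *Atf4* were named after their values had been seen. Alternatives were DESeq2 1.42.0, limma-voom (limma 3.58.1), DESeq2's size factors or library sizes alone in edgeR, no filter, 1 fit of all libraries, a replicate block, chromosome offsets, each library left out in turn and, added after the data were seen, edgeR without robust moderation.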

Additional observations from a re-analysis of the deposited data

Results flagged for a closer look

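In a group of 4 WT libraries, a library whose gap to the next value took most of the group's range was noted for 6 of 51 genes. For independent, normally distributed values chance gives about 1 in 20. The genes were chosen with earlier results known and several flags fall on the same library, so that this rate is only a guide. WT library 3 was low for *Eef1b2* (955 CPM) and high for *Eif3l* (408), *Nupr1* (60.4) and *Aldh18a1* (272). WT library 2 was high for *Eif3d* (375) and *Phgdh* (499). Among factor genes, a difference between the knockouts passed the test for *Eif3j1*, with a log2-fold change of −1.28 for Ep400 ko minus Kat5 ko.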

How the results depend on the processing

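With the replicate block, 0 factor genes were called in any comparison and 0 were DEGs. Of all genes, 0%, 0.73% and 1.27% were then called higher for Kat5, Ep400 and between the knockouts, and 0%, 0.496% and 0.294% lower. The replicate numbers did not pair the samples (correlation of residuals −0.096 to 0.223), and the block leaves fewer residual degrees of freedom. For Ep400, the 8 lower factor genes became 17 in DESeq2, 4 in 1 fit of all 10 libraries and 4 with chromosome offsets. Of all genes, 10.5%, 3.66% and 5.81% were called lower in these fits, compared to 5.72%. The 1 DEG became 2 in limma-voom and 2 without a filter, and *Eif3f* left 0 factor genes above the WT range with DESeq2's size factors. For Kat5, 0 calls became 4 higher and 1 lower in DESeq2, with 4.86% and 6.12% of all genes. For Ep400 against Kat5, the 1 lower factor gene became 19 in DESeq2 (7 DEGs), 3 in limma-voom (3 DEGs), 3 without a filter (3 DEGs), 24 in the fit of all libraries (7 DEGs) and 2 with chromosome offsets (2 DEGs). Of all genes, 10.3%, 3.21%, 2.66%, 12.1% and 2.94% were called lower there, compared to 2.83%. Leaving out each library gave 0 to 22 higher, 0 to 1 lower and 0 to 1 DEGs for Kat5, 1 to 7 lower and 0 to 1 DEGs for Ep400, and 0 to 14 lower and 0 to 11 DEGs between the knockouts. Over all genes, these fits called 0% to 9.83% higher and 0.00752% to 9.54% lower for Kat5. They called 2.32% to 6.13% lower for Ep400 and 0% to 8.68% lower between the knockouts. Shares of DEGs over all genes were not computed for the alternatives. The cause of these shifts was not tested. Medians over the factor genes kept their sign in every alternative. Scaling by library size alone moved the median of all genes between the knockouts from 0.01 to 0.14 and that of the factor genes from −0.58 to −0.43.

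No factor gene that was called changed sign in any alternative. Over all 55 factor genes, 0 to 9 turned sign in a fit, with 9 without Ep400 ko clone 3 and 7 between the knockouts under library size alone. Among the genes described by name, these included, with chromosome offsets, *Eef1g* for Kat5 (0.073), *Eif1* for Ep400 (0.023) and *Eif1* between the knockouts (0.18). *Eefsec* for Kat5 turned with library size alone, with the replicate block and without Kat5 ko clone 2. *Eif2b2* for Ep400 turned without Ep400 ko clone 2. *Eif5* for Ep400 turned in limma-voom (−0.015) and without a filter (−0.018). With library size alone, between the knockouts, *Eif1* had 0.067, *Eif4a2* 0.048, *Eef1a1* 0.006, *Eef1b2* 0.002, *Eef2k* 0.072 and *Eif4e3* 0.035. Leaving out single libraries gave, for Kat5, *Eef2k* −0.122 to 0.043, *Eef2* −0.14 to 0.008, *Eif3a* −0.032 to 0.249 and *Eif5b* −0.01 to 0.23. It gave, for Ep400, *Eef2k* −0.304 to 0.011, *Eif1a* −0.03 to 0.21, *Eif5* −0.16 to 0.23, *Eif1* −0.508 to 0.045, *Eif2b5* −0.291 to 0.058 and *Eif4e* −0.365 to 0.086. Between the knockouts it gave *Eif1* −0.37 to 0.17, *Eif4a2* −0.31 to 0.12, *Eif4e3* −0.483 to 0.076 and *Eef2k* −0.284 to 0.037. At the lowest mean in WT (*Eif5a2*), counting error was 6.73% of the mean and the SD between libraries 49.7%. Of the 5 ATF4 pathway genes called for Kat5, 3 were called in limma-voom, 2 in the fit of all libraries and 0 with the replicate block. In these fits 0.566%, 0.156% and 0% of all genes were called lower.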
